A study of Homo sapiens with 4 samples.

Results

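To ask where SMAD1 lay around lineage genes at the onset of BMP signaling, SMAD1 peaks were examined at 5 loci: T (also called BRACHYURY or TBXT), EOMES, MIXL1, CDX2 and HAND1. A peak was taken as belonging to a locus when it lay within 100 kb of the gene body on the human genome build hg19. This gave 4 of the 5203 peaks listed for untreated cells and 5 of the 7682 peaks listed after BMP4. The cells were human embryonic stem cells (hESCs) of the established line H1, grown in mTeSR1 medium, either without treatment or with BMP4 at 50 ng/ml for 60 min. Chromatin bound by an antibody to SMAD1 was sequenced in both conditions, and 1 list of peaks was deposited per condition. By the study's methods replicate samples were merged before peaks were called, so the spread between replicates is not known for any value below and the conditions were compared without a test. The lists hold no read counts, so the depth behind each peak is unknown.

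BMP4 binds receptors at the cell surface, which phosphorylate SMAD1 and its relatives. These enter the nucleus with SMAD4 and bind short DNA sites near their target genes. T and EOMES are T-box transcription factors, and MIXL1 is a homeobox factor. All of them mark the primitive streak, from which mesoderm and endoderm form. CDX2 is a homeobox factor of the trophectoderm and, later, of posterior embryonic tissue and the gut. HAND1 is a basic helix-loop-helix factor of trophoblast, extraembryonic mesoderm and heart.

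SMAD1 peaks were listed within 100 kb of 4 of the 5 genes, and the loci differed in which list held them. EOMES had peaks in both lists, 2 in untreated cells and 3 after BMP4, of which 1 in each list lay in the gene body. HAND1 had a single peak, in the BMP4 list, just upstream of its start. CDX2 had 1 distant upstream peak in each list, at different positions. T had 1 distant peak in the untreated list and none after BMP4, and MIXL1 had no peak in either list.

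**Figure D1:**
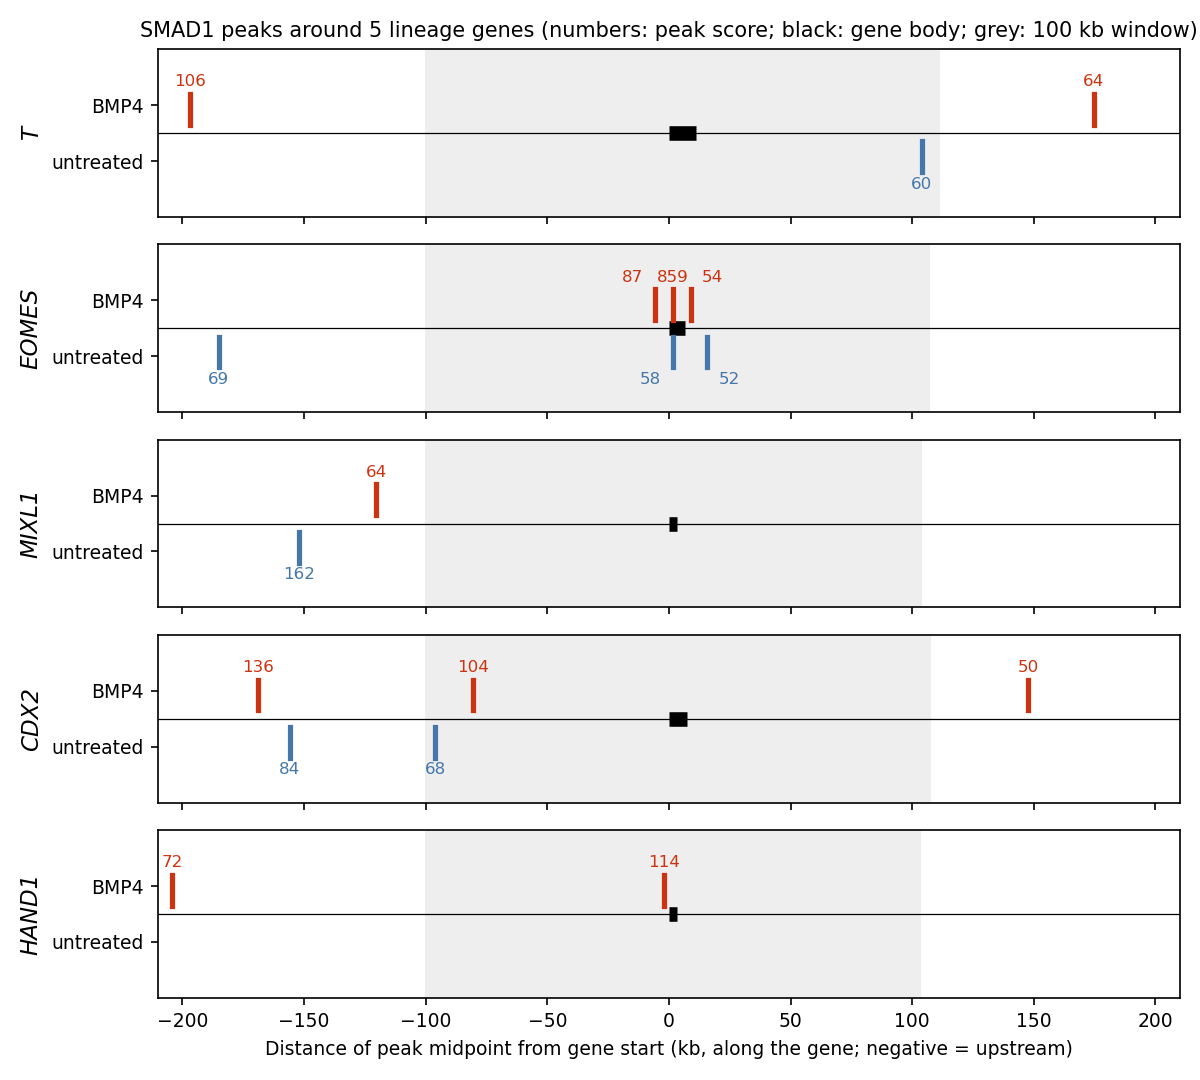
Positions of SMAD1 peaks around the 5 genes, with the distance of each peak midpoint from the gene start in kb on the horizontal axis (negative is upstream) and 1 panel per gene. Red ticks above the line are BMP4 peaks, blue ticks below it are untreated peaks, numbers are peak scores, black bars are gene bodies and grey is the 100 kb window. The 3 BMP4 peaks of EOMES crowd around the gene and the HAND1 peak sits beside its start, whereas the MIXL1 window is empty.

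Each list thus had a peak at 3 of the 5 genes (60%, 95% exact Clopper-Pearson interval 14.7 to 94.7). For comparison, each chromosome was divided, from its first to its last listed peak, into complete stretches of 206 kb, the mean length of the 5 windows. This gave 14546 stretches. Of these stretches, 23.9% held at least 1 untreated peak and 36.1% at least 1 BMP4 peak. The interval for 5 genes covers both shares, but it is too wide to decide whether these genes differed from stretches in general. It also assumes a random draw, whereas the genes were chosen with earlier results of these data known. The stretches were not chosen for holding a gene. The 5 windows held 3.88 untreated and 4.85 BMP4 peaks per Mb, against 1.75 and 2.56 over the whole lists. EOMES alone gave 2 of the 4 untreated and 3 of the 5 BMP4 peaks, and 2 peaks per list remained without it.

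The DNA just before the start of EOMES and HAND1 is shown because these genes had the peaks nearest to their starts. The peaks themselves lie outside these stretches and on hg19, of which no sequence was used here. The sequences are the 250 bases upstream of the start in RefSeq, on build GRCh38 and on the minus strand, at chr3:27722324-27722573 for EOMES and chr5:154478228-154478477 for HAND1. Capitals mark GTCT or its reverse complement AGAC, a core of SMAD sites, and GGAGCC or its reverse complement GGCTCC, a GC-rich site of BMP-responsive elements.
EOMES: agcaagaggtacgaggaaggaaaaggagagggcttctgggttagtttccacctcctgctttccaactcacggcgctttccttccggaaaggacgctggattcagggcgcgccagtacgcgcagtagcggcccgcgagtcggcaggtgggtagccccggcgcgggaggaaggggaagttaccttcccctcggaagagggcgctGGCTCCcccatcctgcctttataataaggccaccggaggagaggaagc
HAND1: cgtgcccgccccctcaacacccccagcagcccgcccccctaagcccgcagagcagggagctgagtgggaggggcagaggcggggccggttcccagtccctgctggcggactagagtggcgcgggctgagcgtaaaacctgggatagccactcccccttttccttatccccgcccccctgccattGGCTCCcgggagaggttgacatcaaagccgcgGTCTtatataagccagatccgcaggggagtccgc
The EOMES sequence held no GTCT and 1 GGAGCC match, and the HAND1 sequence held 1 of each. Neither held GGCGCC, the other GC-rich site searched. Such matches are common, as 77.5% of 35116 RefSeq promoter stretches of this length held GTCT, 30.6% held GGAGCC and 16.4% held GGCGCC. The genes without a peak near their start also held matches. GTCT matched 3 times at MIXL1, 3 times at CDX2 and 0 or 2 times at T, which has more than 1 such stretch. GGAGCC matched 0 times at MIXL1 and CDX2 and 0 or 1 times at T. A match of these letters is a description of the sequence and not a bound site.

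EOMES carried the SMAD1 peak with the highest score of the 5 loci. In the BMP4 list, a peak from 27761936 to 27763053 on chromosome 3 lay inside the EOMES gene body (27757440 to 27764206, minus strand), between 1153 and 2270 bp downstream of the gene start. It was 1118 bp wide and had a score of 859. The score is that of the authors' peak caller, taken as −log10 of each peak's p-value times 10, with a listed minimum of 50. It ranked 333 in the BMP4 list, where 4.33% of peaks scored at least as high, and 11.9% were at least as wide.

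The same site was listed in untreated cells with a score close to the minimum. The untreated peak ran from 27762363 to 27762967, was 605 bp wide and scored 57.6, a rank of 3198 of 5203. All 605 bp lay within the BMP4 peak, of which they covered 54.1%, and the midpoints were 170.5 bp apart. This was the only overlap between the lists at the 5 loci, which left a partner for 1 of the 4 untreated and 1 of the 5 BMP4 peaks, where a partner is a peak of the other list that overlaps by at least 1 bp. These are shares of 25% (0.631 to 80.6) and 20% (0.505 to 71.6), against 18.3% and 12.7% over the whole untreated and BMP4 lists. The intervals cover the shares of the whole lists, but with so few peaks they are too wide to decide a difference.

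The score of the EOMES site was 802 higher in the BMP4 list than in the untreated list. The lists formed 996 overlapping pairs, from 953 untreated and 974 BMP4 peaks, since a peak can overlap more than 1 other. In 56.4% of the pairs the score was higher in the BMP4 list. In 245 of the 996 pairs (24.6%) it was higher by at least as much as at EOMES. Among the 103 pairs whose untreated peak scored under 60, the median BMP4 score was 82.4 (quartiles 58.7 and 159). Of these 103 pairs, 2 (1.94%), EOMES included, had a BMP4 score of at least 859. This comparison was chosen after the EOMES scores had been seen. Scores depend on sequencing depth, which may differ between the lists, and whether depth had a part in the difference was not tested.

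**Figure D2:**
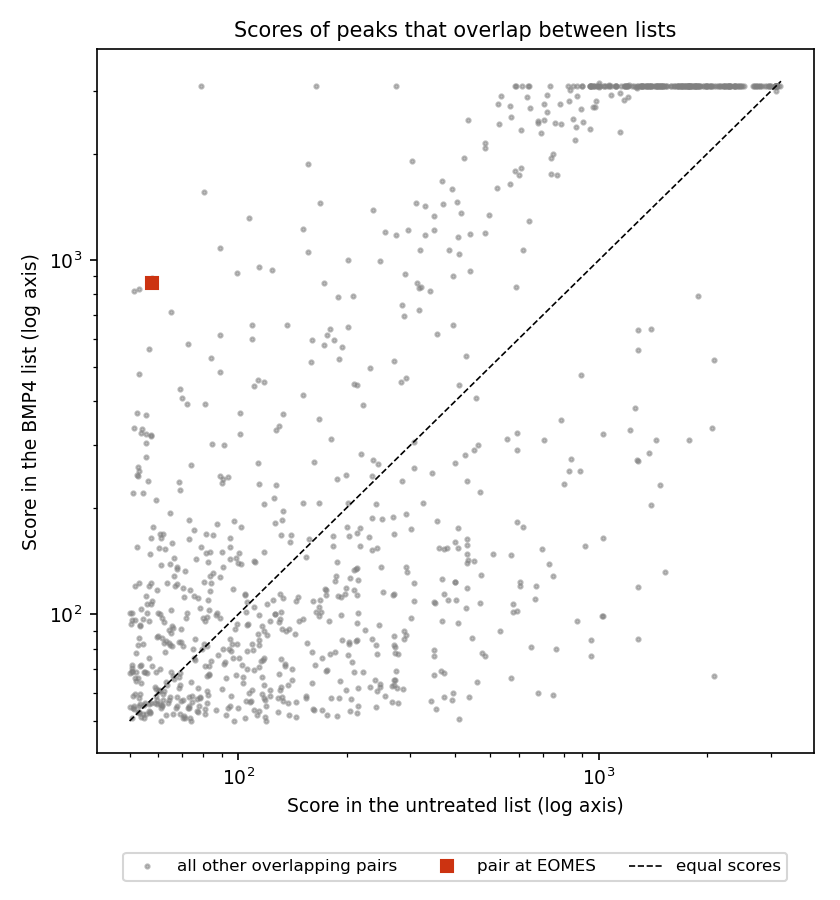
Score in the untreated list (horizontal, log axis) against score in the BMP4 list (vertical, log axis) for the 996 pairs of overlapping peaks. Grey points are pairs elsewhere in the genome, the red square is the pair at EOMES and the dashed line marks equal scores. The EOMES pair, at 57.6 and 859, lies near the left edge and far above the line, and the row of points at the top is a score of 3100 shared by many BMP4 peaks.

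Further peaks flanked EOMES on both sides and had no partner. After BMP4, a peak from 27769602 to 27770458 lay 5.40 kb upstream of the gene, was 857 bp wide and scored 87.0, with 25.1% of the list at or above that score. A weaker BMP4 peak from 27754807 to 27755539 lay 1.90 kb downstream of the gene body, was 733 bp wide and scored 53.9, and 80.5% of the list scored as high or higher. In untreated cells, a peak from 27748181 to 27748758 lay 8.68 kb downstream, was 578 bp wide and scored 52.5, with 85.6% of the list at or above it. It was 6.05 kb from the nearest BMP4 peak. The untreated peaks of EOMES thus had scores near the minimum, as did much of the untreated list, whose median was 61.7. The BMP4 peaks of EOMES ranged from near the minimum to the site in the gene body.

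The 3 BMP4 peaks of EOMES fell within 15.7 kb, with gaps of 6397 and 6549 bp between neighbours. In the BMP4 list, 5.57% of peaks belonged to a group of 3 within such a span, and in the untreated list 10.7% did. The span was set by the EOMES peaks after they had been seen. The BMP4 share includes these peaks, and peaks at tRNA regions were not removed. Beyond the EOMES group, the next untreated peak upstream of EOMES was 184.7 kb away, from 27948872 to 27949575, and scored 69.2. The protein-coding neighbours of EOMES in RefSeq are CMC1 upstream and SLC4A7 downstream.

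HAND1 had a SMAD1 peak beside its start after BMP4 and none for over 1 Mb in untreated cells. The BMP4 peak ran from 153859212 to 153860164 on chromosome 5, between 1388 and 2340 bp upstream of the start of HAND1 (153854532 to 153857824, minus strand). It was 953 bp wide and scored 113.5, a rank of 1286, with 16.7% of the BMP4 list at or above it. Among the 6708 BMP4 peaks without a partner, 10.3% scored at least as high. The rank of the HAND1 peak lies beyond the shorter list length given in the study's methods. On the downstream side, the first BMP4 peak was found at 284.0 kb. The nearest untreated peaks lay 1353.4 kb downstream and 2851.4 kb upstream of the gene. Sites that scored under 50 are not listed, so a lower level of SMAD1 at this site in untreated cells would not have been detectable. LARP1 is the next protein-coding gene upstream of HAND1 in RefSeq, and SAP30L the next downstream.

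**Figure D3:**
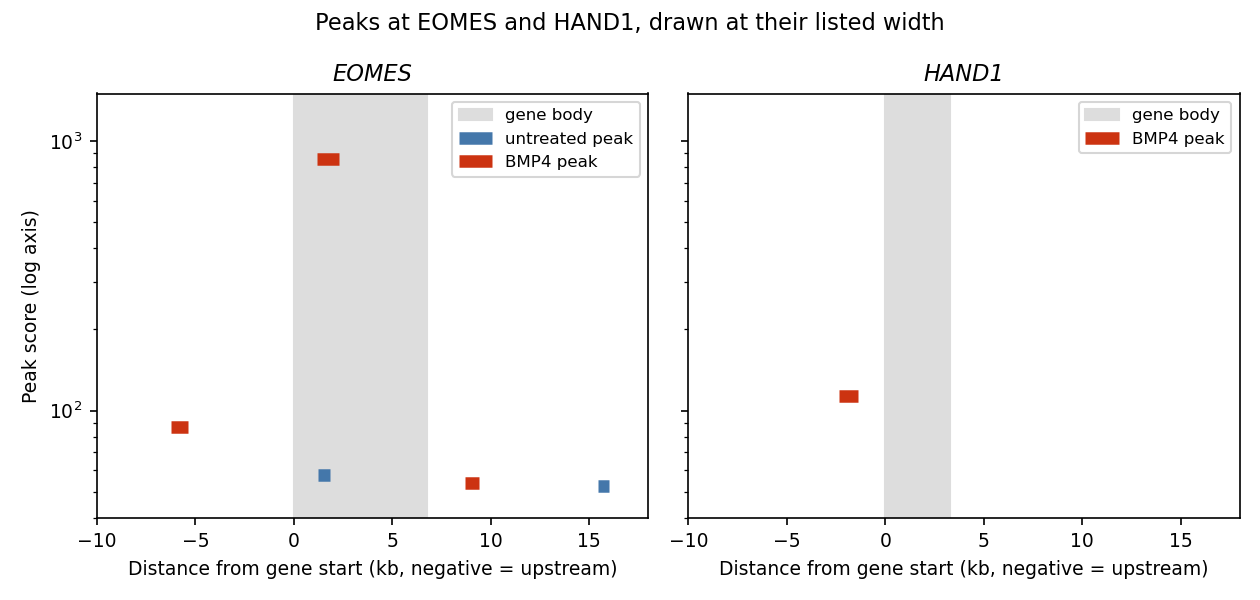
Close view of the peaks at EOMES (left) and HAND1 (right), with the distance from the gene start in kb on the horizontal axis (negative is upstream) and the peak score on a log axis. Each line is a peak at its listed width, red after BMP4 and blue in untreated cells, and grey marks the gene body. The BMP4 peak at 859 stands above the untreated peak at 57.6 at the same position of EOMES, and HAND1 has 1 peak, upstream of the gene.

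CDX2 had no SMAD1 peak within 80 kb in either list. The BMP4 peak nearest to CDX2 (chromosome 13, 28536205 to 28543505, minus strand) ran from 28623659 to 28624690, 80.2 kb upstream. It was 1032 bp wide and scored 104.4, with 19.0% of the BMP4 list at or above it. The untreated peak ran from 28639189 to 28640084, 95.7 kb upstream, was 896 bp wide and scored 68.0, with 38.8% of the untreated list at or above it. The peaks were 14.5 kb apart and neither had a partner. Upstream of CDX2, RefSeq lists URAD and then FLT3, a receptor tyrosine kinase gene of blood progenitors, and both peaks lay on that side. A gene closer to these peaks than CDX2 cannot be named here, because no annotation of hg19 was used. Farther out, CDX2 had an untreated peak 155.5 kb upstream (score 83.9) and BMP4 peaks 168.3 kb upstream (score 136.1) and 140.2 kb downstream (score 50.1). The nearest untreated peak downstream was 1384.2 kb away.

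T had a single peak in its window, in the untreated list. It ran from 166477877 to 166478689 on chromosome 6, 92.5 kb downstream of T (166571146 to 166582157, minus strand), on the side of PDE10A, a phosphodiesterase gene. It was 813 bp wide and scored 59.7, and 54.9% of the untreated list scored as high or higher. The nearest BMP4 peak to this site was 70.2 kb away. The nearest untreated peak upstream of T was 615.0 kb away. After BMP4, the peaks closest to T lay outside the window, 163.4 kb downstream (score 64.3) and 196.3 kb upstream (score 105.7). No SMAD1 peak was thus listed closer than 92.5 kb to T in either condition.

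MIXL1 had no peak within 100 kb in either list. The nearest BMP4 peak, from 226290647 to 226291252 on chromosome 1, was 120.1 kb upstream of MIXL1 (226411319 to 226414756, plus strand), was 606 bp wide and scored 64.2. The nearest untreated peak, from 226258906 to 226259864, was 151.5 kb upstream, was 959 bp wide and scored 161.9. Downstream of MIXL1 the nearest peaks were a BMP4 peak 906.2 kb away and an untreated peak 1206.7 kb away. ACBD3 is the next protein-coding gene upstream of MIXL1, and LIN9, a gene of a cell cycle regulatory complex, the next downstream. The limit of 100 kb fell in a gap, since the farthest peak inside it was the untreated CDX2 peak at 95.7 kb and the nearest outside it this BMP4 peak at 120.1 kb.

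The closeness of a peak to each gene start was then set against the whole chromosome. For the BMP4 list, 0.810% of positions on chromosome 3 were as near to a peak as the EOMES start, and 0.939% of positions on chromosome 5 were as near as the HAND1 start. The share was 29.5% of chromosome 13 for CDX2, 43.5% of chromosome 1 for MIXL1 and 56.3% of chromosome 6 for T. The EOMES and HAND1 starts thus stood closer to a BMP4 peak than most positions of their chromosomes, which the other starts did not do to a like degree. In the untreated list the shares were 0.474% for EOMES, 21.8% for CDX2, 22.9% for T, 33.4% for MIXL1 and 93.1% for HAND1. EOMES was the gene nearest to a peak in both lists, and HAND1 was second in the BMP4 list and last in the untreated list. Shares are of all positions between the first and last peak of a chromosome, gaps in the assembly included, and carry no test. How near other gene starts lie to a peak was not computed.

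The peaks of the loci were then described by score and width. Median scores were 61.7 over the whole untreated list and 63.3 over the whole BMP4 list. The 4 untreated peaks scored between 52.5 and 68.0, and none reached 100, where 21.3% of the untreated list did (0 of 4, interval up to 60.2%). The 5 BMP4 peaks scored between 53.9 and 859, and 3 of them reached 100 (60%, 14.7 to 94.7), 1 each at EOMES, CDX2 and HAND1, where 20.2% of the BMP4 list did. The interval of each list covered the share of its whole list. With 4 and 5 peaks, 3 of the BMP4 peaks being neighbours at EOMES, the intervals are too wide to decide a difference. The untreated peaks were 578 to 896 bp wide and the BMP4 peaks 733 to 1118 bp, against medians of 695 and 674 bp over the lists.

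**Figure D4:**
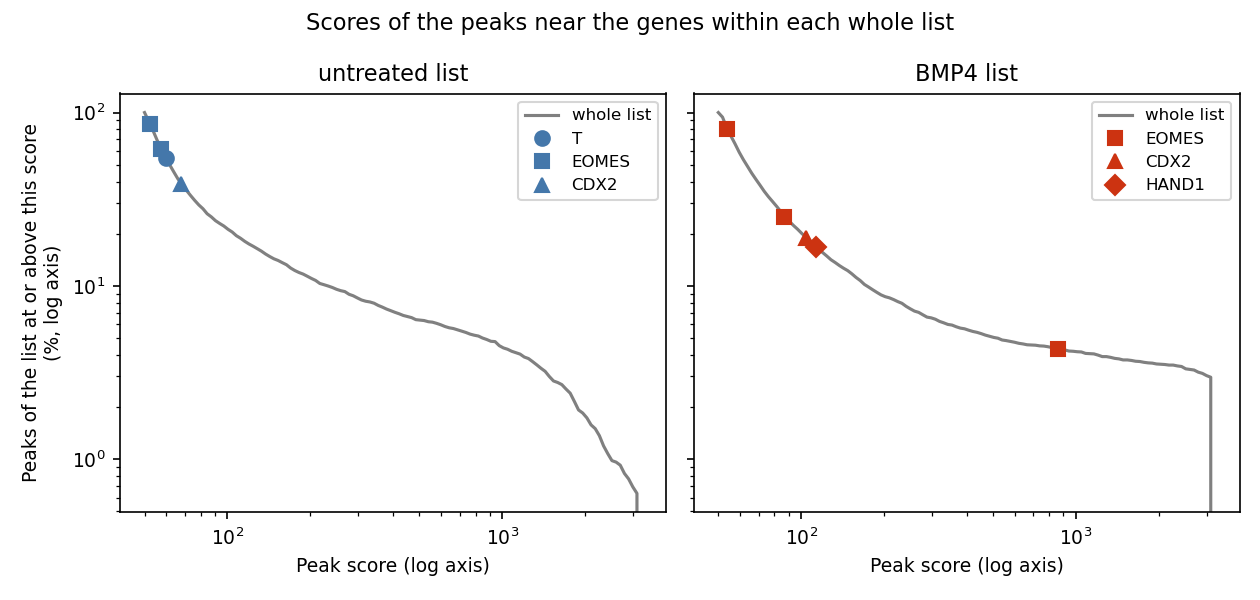
Share of all peaks of a list (vertical, percent, log axis) that have at least the score on the horizontal log axis, for the untreated list (left) and the BMP4 list (right). The grey line is the whole list and symbols are the peaks within 100 kb of a gene, by gene. The 4 untreated peaks sit between 52.5 and 68.0, on either side of the untreated list median of 61.7. The BMP4 peaks extend to the EOMES peak, with 4.33% of the list at or above it.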

How the data were processed

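SMAD1 ChIP-seq of H1 hESCs was deposited as 1 peak list per condition, and no separate analysis was made of the 2 input samples. The authors aligned reads, by their methods, to hg19 with BWA 0.7.5a, merged replicate samples and called peaks against input with MACS 1.4.2 at default settings. The deposited lists, of 5203 untreated and 7682 BMP4 peaks, are many times longer than the peak numbers given in those methods, which also name the untreated cells as having more peaks, and the reason is not given in the sources used here. Every rank and share is over the deposited lists, and all peaks of the loci except the BMP4 peak in the EOMES gene body, at rank 333, rank beyond that shorter length. The score deposited by the authors for each peak was read as 10 times −log10 of its p-value and rises with depth, so that a difference in score between lists is not a difference in enrichment. The authors judged peaks at tRNA regions nonspecific, and none was removed here.

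The 5 genes and their hg19 positions, the groups of peaks and the comparisons were chosen with earlier results of these data known. The text names these genes with every peak within 100 kb and the nearest peak on either side. Positions are 1-based. Distance is counted between the nearest edges of peak and gene body, and is 0 where they overlap. Partners overlap by at least 1 bp. Intervals are 95% exact binomial intervals that cover the number of peaks or genes alone. They assume independent random draws, which genes chosen in this way and neighbouring peaks are not, so no comparison rests on them. The reference was GRCh38, so hg19 peaks were matched to no annotation or sequence. RefSeq gave strand, promoter sequence and gene order for the 5 genes, with T matched as TBXT. A planned list of other lineage and BMP target genes was not run, because it needed hg19 positions. The window and partner steps were tested on simulated lists with planted peaks and recovered all of them. The tools were Python 3.11.15 with scipy 1.17.1, pandas 2.3.3, numpy 2.4.6 and, for plots, matplotlib 3.10.9.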

Additional observations from a re-analysis of the deposited data

How the results depend on the processing

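In all, 16 values were recomputed under those of 7 alternatives that apply to them, and 33 of 48 recomputed values stayed within 1.5 times. A window of 50 kb left 2 untreated peaks, at 1 gene. One of 200 kb gave 7 untreated peaks at 4 genes and 10 BMP4 peaks at all 5 genes. The share of all stretches with a peak was not computed for these window lengths. With a score of at least 100, 0 untreated peaks at 0 genes and 3 BMP4 peaks were left, and the nearest untreated peak lay 747.5 kb from T, 3796.2 kb from EOMES, 2491.4 kb from CDX2 and 3446.5 kb from HAND1. The nearest BMP4 peak to MIXL1 was then 277.3 kb away. These changes follow from the filters themselves. Measured from the gene start instead of the gene body, the distance at EOMES was 1.24 kb in the untreated list and 1.15 kb in the BMP4 list, where it had been 0, and the untreated peak of T fell outside the window. Leaving out peaks wider than 5000 bp changed none of the counts computed for it. The same held for 2 other rules for partners, namely a gap of at most 1000 bp and a shared part of 50% or more of both peaks. These outcomes were fixed by the peaks themselves and show no stability, though they are among the 33 values. The widest peak of the loci was 1118 bp, and peaks without a partner lay at least 6.05 kb from the other list. The EOMES pair shared 100% of its untreated and 54.1% of its BMP4 peak. No paired analysis was possible because there was 1 list of peaks per condition. Without read counts, a change in occupancy at a site with a score under 50 was not detectable.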

Other observations

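The surroundings of HAND1 differed between the lists beyond the 100 kb window. These values were chosen after the data had been seen and carry no test. HAND1 lay in a stretch of 4.21 Mb without an untreated peak, and 49 gaps between untreated peaks, this one included, were at least as long, 3 of them on chromosome 5. These 49 gaps made up 10.2% of the length of all gaps, assembly gaps included. In the stretch around HAND1 the BMP4 list had 19 peaks, with scores from 51.1 to 270.9 and a median of 62.8. The peak beside HAND1 had rank 3 among them, and 3 scored at least 100. The stretch held 4.52 BMP4 peaks per Mb, the highest value among the 49 gaps, whose median was 1.38 and lowest 0. Over the whole BMP4 list the value was 2.56 per Mb. Within 1 Mb of HAND1 there were 8 BMP4 peaks and 0 untreated peaks, and the peak beside HAND1 had the highest score of the 8.

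Within 1 Mb of each of the other genes, the BMP4 list held 7 peaks at T, 8 at EOMES, 5 at MIXL1 and 8 at CDX2, and the untreated list held 5, 4, 2 and 3. Over the 5 genes this came to 36 BMP4 and 14 untreated peaks, a ratio of 2.57, and to 28 and 14 without HAND1, a ratio of 2.0. Over the 5 genes the ratio was 2.0 within 50 kb, 1.25 within 100 kb, 1.43 within 200 kb and 2.5 within 500 kb, against 1.48 for the whole lists, so it depended on the window.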
